A study of Mus musculus with 18 samples.

Results

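Transcripts of 66 genes for enzymes that write or remove methyl and acetyl groups on histones were examined in mouse liver. The genes were chosen by name: protein-coding genes whose symbols begin with Kdm, Kmt2, Setd, Suv39h, Ehmt, Hdac, Kat2, Kat5, Kat6, Kat7, Kat8 or Prmt, together with Ezh1, Ezh2, Ep300 and Crebbp. They are 66 of the 23532 genes named in the deposited table, and a gene with several RefSeq transcript rows is represented by the row with the highest mean. Of the 66, 58 reached 1 RPKM in at least 3 of the 18 libraries and were tested with the 10356 genes that did so. RPKM is reads per kilobase of transcript, scaled to the number of mapped reads in the library.

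The livers came from wild-type C57BL/6J mice on the LF or the HF diet, each diet alone or with CR or Ex, with 3 libraries in each of the 6 groups (LF, HF, LF+CR, HF+CR, LF+Ex and HF+Ex). The abbreviations are taken to stand for low-fat and high-fat diet, caloric restriction and exercise, which the labels do not spell out. Treatment started at 5 weeks of age, and the samples were taken at 62 weeks. No source used here gives the sex of the mice or says whether 1 library is 1 mouse, so every p-value below measures only the spread between these samples, which may be technical. The Y-linked Kdm5d was at 1.56 RPKM or more in all 18 libraries.

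Histone methyltransferases place methyl groups on lysines and arginines of histone tails, demethylases of the Kdm family take them off lysines, and acetyltransferases and deacetylases add and remove acetyl groups on lysines. Methylation of lysine 4 of histone H3 is found at active promoters and enhancers, methylation of lysines 9 and 27 at silenced chromatin, and acetylation mostly at active genes. In liver, deacetylases and acetyltransferases are known for tying the transcription of glucose and lipid metabolism to feeding state, with Hdac3 acting with nuclear receptors in lipid metabolism.

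The estimated depth was 23.3 M to 45 M reads per library (median 28.2 M), from the step between the lowest RPKM values. Of 8 hepatocyte marker genes, 7 were above 0 in all 18 libraries, and Alb was listed at 0 in 14 and reached 33220 RPKM. The sum of the 8 was 46340 to 50900 RPKM in HF+Ex and 51320 RPKM in HF 1, and at most 26470 RPKM elsewhere. It was thus uneven between groups, and its bearing on the comparisons with HF+Ex was not tested. The summed level of 12 exocrine pancreas markers was 2267 RPKM in LF+CR 1, 385 in HF+CR 1 and 43.0 in LF+Ex 1. It was 38.6 in a second HF+CR library and at most 12.65 in the rest. Fits without the libraries with pancreatic transcripts left out LF+CR 1, HF+CR 1 and LF+Ex 1 and kept that second HF+CR library. The summed level of 8 bile duct markers was 148 RPKM in LF 2 and 167 in HF+CR 3, and at most 74.6 elsewhere. Spp1 ran from 14.7 to 155 RPKM over the libraries, and no other marker of that set exceeded 7.87 RPKM. LF 2 and HF+CR 3 were also the highest in summed stellate cell markers, at 151 and 144 RPKM against at most 126 elsewhere. HF+CR 3 was the highest in lymphocyte markers too, at 8.41 RPKM. Results that rest on the libraries high in pancreatic or bile duct markers are given with and without them. Whole liver was sequenced, so fewer cells of a type and less RNA per cell cannot be told apart.

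The enzymes were present at low to moderate levels that differed little between groups. The median of the mean level was 3.73 RPKM over the 58 tested members and 6.03 RPKM over all tested genes. The ratio of the highest to the lowest group mean had a median of 1.397 over the members, with quartiles of 1.31 and 1.65, against 1.47 over all tested genes. It was under 2 for 52 of 58 members (89.7%) and for 79.2% of all tested genes. The 6 members with a ratio of 2 or more were Setd4 (4.17), Kdm2b (3.36), Kat2b (2.37), Hdac10 (2.24), Kdm4c (2.22) and Kdm5b (2.10). These ratios are of the row that represents a gene. Group means of the summed Kat2b rows ran only from 12.5 to 17.9 RPKM. The group with the highest mean was LF for 14 members, LF+CR for 19, LF+Ex for 1, HF for 5, HF+CR for 15 and HF+Ex for 4, against 19.7%, 29.4%, 3.83%, 14.6%, 19.6% and 12.9% of all genes. The lowest mean was in LF+Ex for 20 members and in HF for 17, against 33% and 11.3% of all genes. In the plot of levels by class, Setd3 and Hdac11 lie farthest to the right.

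**Figure D1:**
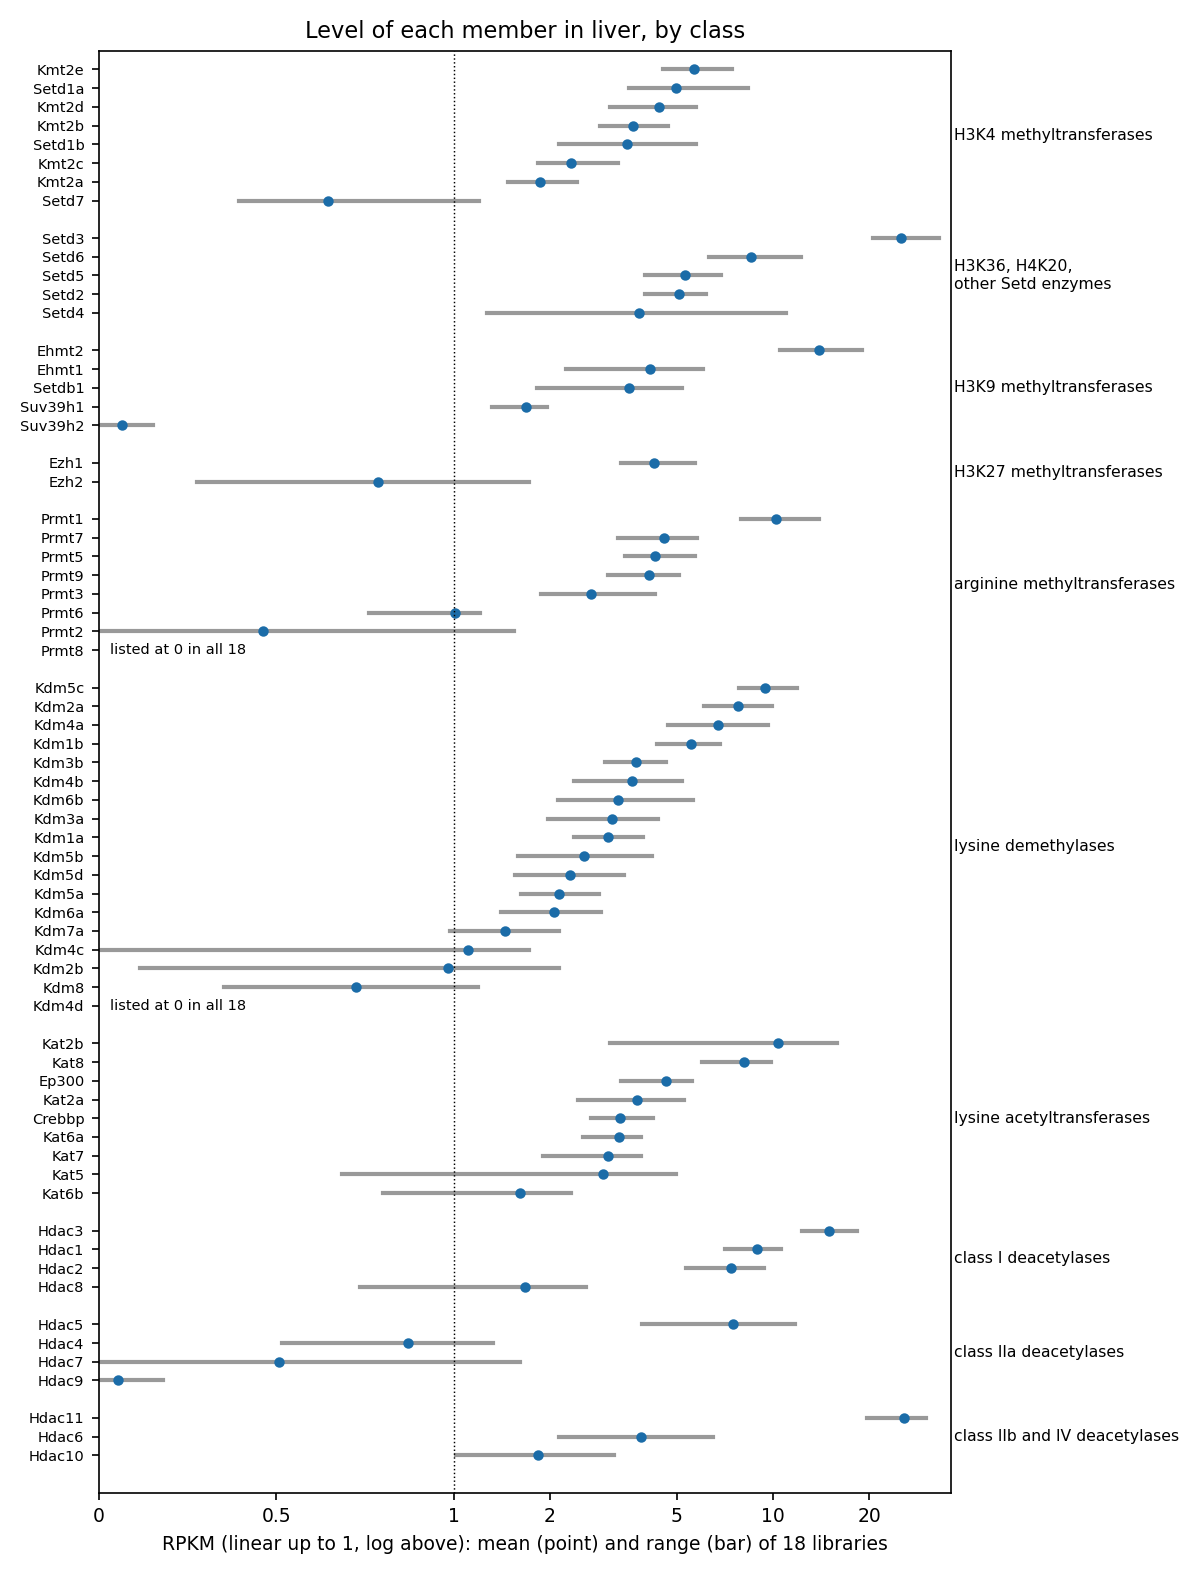
Mean (point) and range (bar) over 18 liver libraries of each of the 66 genes in RPKM, on an axis that is linear up to 1 and logarithmic above, grouped by class. Setd3 and Hdac11 had the highest means, 25.2 and 25.7 RPKM, and Prmt8 and Kdm4d were listed at 0 in all 18 libraries.

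The other 8 members did not pass the filter on low values. Their means were 0.646 RPKM for Setd7, 0.0659 for Suv39h2, 0.461 for Prmt2, 0.507 for Hdac7, 0.0533 for Hdac9 and 0.725 for Kdm8, and Prmt8 and Kdm4d were listed at 0 throughout. Prmt8 is known as a brain enzyme and Kdm4d as one most abundant in testis. Hdac7 has 8 RefSeq rows, among which its reads were divided, and passed the filter once the rows were summed.

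Writers of methyl groups on lysine 4 of H3 are the Kmt2 and Setd1 enzymes, large proteins that act in complexes with shared core subunits. Setd7 was below the filter, and the most abundant of the 7 tested was Kmt2e, a relative with no clear methyltransferase activity of its own. Kmt2e was at 4.73, 6.32 and 5.42 RPKM in LF, 6.72, 7.42 and 5.88 in LF+CR, 5.51, 4.71 and 4.81 in LF+Ex, 4.54, 5.84 and 5.21 in HF, 6.26, 5.63 and 6.69 in HF+CR, and 5.37, 5.47 and 5.45 in HF+Ex. LF+CR held the 2 highest Kmt2e values, and its range overlapped those of LF and HF+CR. The means of the other 6 ran from 4.97 RPKM for Setd1a down to 1.87 RPKM for Kmt2a, and Setd1a, a catalytic subunit of the complex that places most trimethylation of lysine 4, was above its paralog Setd1b in 17 of 18 libraries.

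The second group of Setd genes covers lysine 36 of H3 and substrates other than histones. Setd3, known as an actin histidine methyltransferase, was at 20.6, 26.1 and 28.5 RPKM in LF, 29.3, 33.2 and 27.95 in LF+CR, 24.7, 25.1 and 21.7 in LF+Ex, 23.97, 26.4 and 26.6 in HF, 23.9, 24.5 and 24.4 in HF+CR, and 21.7, 22.7 and 22.996 in HF+Ex. The LF+CR libraries held 2 of the 3 highest Setd3 values and all lay above every HF, HF+CR and HF+Ex library. Setd2, which trimethylates lysine 36 of H3, had a mean of 5.07 RPKM, Setd5 5.30 RPKM, Setd6, a methyltransferase of the RelA subunit of NF-kappaB, 8.54 RPKM and Setd4 3.81 RPKM.

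On lysine 9 of H3, Ehmt2 (G9a), which makes the mono- and dimethylated forms with Ehmt1, was the leading gene. Ehmt2 was at 15.3, 18.98 and 12.8 RPKM in LF, 15.5, 11.9 and 15.1 in LF+CR, 14.7, 10.9 and 10.7 in LF+Ex, 16.8, 14.9 and 13.8 in HF, 11.2, 10.5 and 15.8 in HF+CR, and 13.8, 14.6 and 12.9 in HF+Ex. All 6 groups overlapped one another in part, and Ehmt2 was above Ehmt1 in 18 of 18 libraries. Setdb1 and Suv39h1, which make the trimethylated form, had means of 3.53 and 1.68 RPKM.

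Of the catalytic subunits of the Polycomb complex that methylates lysine 27, Ezh1, known as the form of resting cells, was above Ezh2, the form of dividing cells, in 18 of 18 libraries. Ezh1 was at 3.82, 5.24 and 3.33 RPKM in LF, 3.72, 4.01 and 4.21 in LF+CR, 3.53, 3.70 and 3.79 in LF+Ex, 4.43, 4.89 and 4.53 in HF, 4.72, 4.39 and 5.68 in HF+CR, and 3.42, 4.26 and 4.54 in HF+Ex. All LF+CR and LF+Ex libraries lay below all HF and HF+CR libraries, and HF+CR 3 was the highest. Ezh2 had a mean of 0.788 RPKM and was highest in HF+CR 3 as well, at 1.72 RPKM, where the summed level of 8 cell cycle genes was also the highest of the 18, 34.95 RPKM against 16.6 to 33.2 RPKM elsewhere. Most of that sum was Pcna, at 15.4 to 27.9 RPKM over the libraries, and none of the other cell cycle genes exceeded 2.54 RPKM. Whether dividing cells have a part in the Ezh2 value was not tested.

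Among the arginine methyltransferases Prmt1, which makes most asymmetric dimethylarginine, was highest. Prmt1 was at 8.59, 12.8 and 8.87 RPKM in LF, 13.4, 8.11 and 12.7 in LF+CR, 10.7, 10.9 and 8.25 in LF+Ex, 10.8, 11.2 and 10.1 in HF, 7.91, 9.20 and 13.95 in HF+CR, and 9.44, 7.94 and 9.16 in HF+Ex. Its values spread widely within LF, LF+CR and HF+CR, and HF+Ex below HF was the only pair of groups without overlap. The symmetric enzyme Prmt5 had a mean of 4.27 RPKM, below Prmt1 in 18 of 18 libraries, and Prmt6 had the lowest mean of the 6 tested, 1.01 RPKM. For Prmt6, as for Suv39h2, the row with the highest mean is a non-coding RefSeq transcript.

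In the class I deacetylases, nuclear enzymes of corepressor complexes, Hdac3 was the highest in 18 of 18 libraries. Hdac3, the deacetylase of the NCoR and SMRT corepressors, was at 13.99, 15.04 and 14.3 RPKM in LF, 12.7, 14.7 and 15.1 in LF+CR, 12.3, 12.6 and 13.8 in LF+Ex, 16.1, 18.3 and 16.5 in HF, 14.98, 13.9 and 16.6 in HF+CR, and 15.9, 15.7 and 16.7 in HF+Ex. The HF libraries lay above the LF libraries without overlap, and so did HF+Ex above LF+Ex. Hdac1 and Hdac2, which share the Sin3, NuRD and CoREST complexes, had means of 8.89 and 7.36 RPKM, and Hdac8 had 1.67 RPKM.

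Class IIa deacetylases shuttle between cytoplasm and nucleus and recruit Hdac3. Hdac5 was at 8.71, 7.24 and 7.11 RPKM in LF, 6.07, 6.75 and 4.62 in LF+CR, 8.79, 3.99 and 7.11 in LF+Ex, 6.61, 3.89 and 8.33 in HF, 11.7, 8.06 and 7.12 in HF+CR, and 11.1, 6.87 and 10.7 in HF+Ex. Hdac5 was above Hdac4 in 18 of 18 libraries, and its lowest and highest values were both HF-diet libraries, HF 2 and HF+CR 1. Hdac11, the class IV enzyme, known as a remover of long-chain fatty acyl groups as well as acetyl groups, was at 29.04, 28.2 and 29.5 RPKM in LF, 19.7, 27.6 and 25.1 in LF+CR, 22.4, 25.7 and 20.4 in LF+Ex, 30.1, 29.3 and 25.1 in HF, 22.1, 25.4 and 26.02 in HF+CR, and 26.4, 26.4 and 24.6 in HF+Ex. The LF libraries of Hdac11 lay above those of LF+CR and of LF+Ex without overlap. Hdac6, the tubulin deacetylase, had a mean of 3.86 RPKM.

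The highest acetyltransferase row was that of Kat2b (PCAF), a catalytic subunit of SAGA and ATAC complexes. Kat2b was at 3.09, 8.74 and 13.7 RPKM in LF, 11.1, 12.2 and 13.002 in LF+CR, 5.65, 7.11 and 5.30 in LF+Ex, 5.83, 10.98 and 15.9 in HF, 15.8, 15.1 and 11.9 in HF+CR, and 9.66, 10.9 and 11.3 in HF+Ex. Values of this row within LF and within HF spread widely, and LF+Ex was its lowest group by the mean. The row holds 69.6% of the Kat2b RPKM. The sum of the 2 Kat2b rows was lowest in HF+Ex, at 12.5 RPKM against 13.6 in LF+Ex. That sum ran from 12.2 to 17.7 RPKM in LF and from 10.4 to 17.2 in HF. Ep300, a broad coactivator that acetylates lysine 27 of H3, was above its paralog Crebbp in 18 of 18 libraries, with means of 4.63 and 3.31 RPKM. Kat8, which acetylates lysine 16 of histone H4, had a mean of 8.14 RPKM.

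The 16 tested demethylases were led by Kdm5c, an X-linked remover of methyl groups from lysine 4 of H3. Kdm5c was at 11.3, 11.9 and 10.3 RPKM in LF, 9.29, 9.22 and 9.31 in LF+CR, 10.4, 9.86 and 9.13 in LF+Ex, 8.06, 9.23 and 7.94 in HF, 9.11, 8.36 and 9.05 in HF+CR, and 7.85, 11.3 and 8.52 in HF+Ex. LF held the highest group mean, and its 3 libraries did not overlap those of LF+CR, HF or HF+CR. Kdm5c was above its relatives Kdm5a, Kdm5b and the Y-linked Kdm5d in 18 of 18 libraries. Kdm2a, a demethylase of lysine 36 of H3 that binds CpG islands, and Kdm4a, which acts on lysines 9 and 36, followed with means of 7.79 and 6.71 RPKM.

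Across the 6 groups, 8 of 58 members (13.8%) differed by the limma F test, with an adjusted p (Benjamini-Hochberg, all 10356 genes) under 0.05, against 21.8% of all genes tested. These were Kdm5b (adjusted p = 0.00425), Setd4 (0.00891), Setd1a (0.0222), Hdac10 (0.0281), Ep300 (0.0302), Kmt2c (0.0359), Prmt9 (0.0365) and Setd5 (0.0375). At an unadjusted p under 0.05 the counts were 16 of 58 (27.6%) and 38.8% of all genes. When the 3 libraries with pancreatic transcripts were left out (HF+CR 1, LF+CR 1, LF+Ex 1), none of the 8 was called, and 511 of all genes were, in place of 2255. Without LF 2 and HF+CR 3, the libraries high in bile duct markers, Ep300 was lost (adjusted p = 0.0531) and the other 7 were called. Kdm5b and Setd4 were called whichever 1 library was left out. Setd1a was lost without LF+CR 1 or LF+CR 2, Hdac10 without any 1 of the LF+CR libraries, and Ep300 without any 1 of 6 libraries (all LF+CR, HF 1, HF 3, HF+Ex 3), while Kmt2c, Prmt9 and Setd5 were lost in 10, 11 and 10 of the 18 fits. Together with Kdm5d, which passed in a comparison of 2 groups but not in the F test, 9 members were called in at least 1 of the 10 tests.

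Kdm5b (JARID1B), a demethylase of lysine 4 of H3, was higher in HF+CR than in any other group. It lies on the forward strand of chromosome 1 at 134560178 to 134632878 of GRCm38.p6. Kdm5b was at 2.10, 2.72 and 2.06 RPKM in LF, 1.58, 1.86 and 1.85 in LF+CR, 2.94, 2.85 and 2.32 in LF+Ex, 2.61, 2.40 and 2.28 in HF, 4.19, 3.61 and 3.34 in HF+CR, and 2.48, 2.57 and 2.37 in HF+Ex. The 3 HF+CR libraries were the 3 highest of all 18 and the 3 LF+CR libraries the 3 lowest, so neither group overlapped any other. Kdm5b rose in HF+CR against LF+CR, from 1.77 ± 0.158 to 3.71 ± 0.433 RPKM (SD, n = 3), a log2 difference of 0.77 ± 0.11 (SE; adjusted p = 0.000614). It also rose in HF+CR against HF, from 2.43 ± 0.169 RPKM (0.46 ± 0.11, adjusted p = 0.0496). In LF+CR against LF the log2 difference was -0.25 ± 0.11 (adjusted p = 0.188), and the interaction of CR with diet was 0.70 ± 0.15 (adjusted p = 0.0360). All differences here and below are of log2(RPKM + 1), which understates changes of low genes.

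The difference between HF+CR and LF+CR was called in all 18 fits that left out 1 library (adjusted p = 0.000426 to 0.00508) and without the libraries with pancreatic transcripts (0.65 ± 0.13, adjusted p = 0.0364). The call in HF+CR against HF was close to its threshold. It was kept in 3 of 18 such fits, without LF 2, LF+Ex 3 or HF+CR 3, and lost in the other 15 (adjusted p = 0.0347 to 0.217 over all 18), and it was lost without the pancreatic libraries (0.38, adjusted p = 0.259). The interaction was kept in 6 of 18 fits, without LF 1, LF 3, any 1 of the LF+Ex libraries or HF+CR 3, and lost in the other 12 (differences of 0.61 to 0.76 and adjusted p = 0.0240 to 0.122 over all 18), and it was lost without the pancreatic libraries (0.58, adjusted p = 0.319).

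Setd4, a SET-domain methyltransferase, was highest in LF+CR. It lies on the reverse strand of chromosome 16 at 93583457 to 93604791. Setd4 was at 3.43, 4.69 and 4.27 RPKM in LF, 10.99, 8.32 and 5.21 in LF+CR, 3.90, 4.19 and 1.27 in LF+Ex, 2.42, 3.12 and 3.34 in HF, 1.72, 2.44 and 1.73 in HF+CR, and 2.17, 2.74 and 2.70 in HF+Ex. The LF+CR libraries were the 3 highest of 18, with a wide spread among them, and the 3 HF+CR libraries were among the 6 lowest. Setd4 was lower in HF+CR than in LF+CR, 1.96 ± 0.417 against 8.17 ± 2.89 RPKM, by a log2 difference of -1.59 ± 0.27 (adjusted p = 0.00223). The difference in LF+CR against LF was 0.79 ± 0.27 (adjusted p = 0.0964), and the interaction of CR with diet was -1.21 ± 0.39 (adjusted p = 0.183), neither of them called. The highest value was that of LF+CR 1, the library with the most pancreatic transcripts. Without the pancreatic libraries the difference between HF+CR and LF+CR was -1.31 (adjusted p = 0.0690), and in the 18 fits without 1 library it was called in each (-1.84 to -1.37, adjusted p = 0.000266 to 0.0161).

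The promoters of Kdm5b and Setd4, the members called in HF+CR against LF+CR in all 18 of those fits, are shown because the data place the 2 genes at opposite ends of that comparison. Each window runs from 250 bases before to 50 bases after a transcript start, 5′ to 3′ on the gene's strand, from RefSeq on GRCm38.p6. For Kdm5b that start is the start of the gene span given above, and for Setd4 it lies inside the span, which reaches farther upstream. Capitals mark a GC box (GGGCGG) or a CCAAT box (CCAAT), searched on both strands; CACGTG and TTCNNNGAA were searched as well.
Kdm5b, chr1:134559928-134560227, forward strand: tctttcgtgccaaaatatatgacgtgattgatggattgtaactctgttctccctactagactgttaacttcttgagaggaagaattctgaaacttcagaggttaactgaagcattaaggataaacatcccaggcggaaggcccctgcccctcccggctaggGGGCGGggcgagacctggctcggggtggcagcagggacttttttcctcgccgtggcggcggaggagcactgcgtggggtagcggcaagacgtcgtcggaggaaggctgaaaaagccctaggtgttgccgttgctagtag
Setd4, chr16:93603766-93604065, reverse strand: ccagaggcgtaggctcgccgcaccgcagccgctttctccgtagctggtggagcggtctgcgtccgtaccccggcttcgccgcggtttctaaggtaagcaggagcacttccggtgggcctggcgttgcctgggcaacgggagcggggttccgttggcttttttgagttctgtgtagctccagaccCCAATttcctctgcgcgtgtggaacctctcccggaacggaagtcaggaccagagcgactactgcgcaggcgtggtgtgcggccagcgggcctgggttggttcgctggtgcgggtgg
The Kdm5b window holds 1 GC box and 17 CpG, with 54.7% G and C, and the Setd4 window 1 CCAAT box and 29 CpG, with 65.3% G and C. Of 32851 such windows, 35.7% hold GGGCGG, 37.4% CCAAT, 7.15% CACGTG and 8.3% TTCNNNGAA, and the medians are 7 CpG and 52.7% G and C. A match describes these letters and shows no bound site. The table holds 54 of the 66 members, without Hdac10.

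Hdac10, a class IIb deacetylase known to act on polyamines, was lowest in LF+CR. It lies on chromosome 15 at 89123303 to 89128700, where the lncRNA gene Gm46530 overlaps it. Hdac10 was at 2.35, 1.98 and 2.25 RPKM in LF, 1.01, 1.07 and 1.03 in LF+CR, 1.56, 2.51 and 1.65 in LF+Ex, 1.82, 1.74 and 1.74 in HF, 1.73, 1.53 and 1.996 in HF+CR, and 1.98, 3.18 and 1.82 in HF+Ex. The 3 LF+CR libraries were the 3 lowest of the 18 and lay close together. Hdac10 fell in LF+CR against LF, from 2.19 ± 0.194 to 1.04 ± 0.0263 RPKM (-0.65 ± 0.15, adjusted p = 0.0181). The estimated number of reads behind a value was 81 to 206, with a median of 121, the lowest median among the 4 members called between 2 groups. The call was lost without LF 1, LF+CR 1 or LF+CR 2 (highest adjusted p = 0.0710 over the 18 fits) and without the pancreatic libraries (-0.64, adjusted p = 0.0851). Hdac10 has 4 RefSeq rows, and the sum of the rows was 3.12 ± 0.448 RPKM in LF and 1.92 ± 0.172 RPKM in LF+CR, again without overlap (2.62 to 3.49 against 1.79 to 2.11 RPKM; log2 difference -0.49, adjusted p = 0.0353).

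Kdm5d, the Y-linked homolog of Kdm5c, was at 2.37, 2.07 and 2.12 RPKM in LF, 1.56, 1.60 and 2.22 in LF+CR, 2.30, 2.01 and 2.26 in LF+Ex, 2.23, 2.82 and 2.48 in HF, 3.42, 2.83 and 2.58 in HF+CR, and 2.09, 2.61 and 2.19 in HF+Ex. HF+CR held the highest group mean, and LF+CR 1 and LF+CR 2 were the 2 lowest of 18 libraries. Kdm5d rose in HF+CR against LF+CR, from 1.79 ± 0.367 to 2.95 ± 0.433 RPKM (0.50 ± 0.12, adjusted p = 0.0144), with no overlap between the groups. The call was lost without LF+CR 1, LF+CR 2 or HF+CR 1 (highest adjusted p = 0.0849) and without the pancreatic libraries (0.36, adjusted p = 0.283). Kdm5d (chromosome Y, 897566 to 943813) and Kdm5c are close in sequence, so reads shared between them could be split between the 2 genes.

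**Figure D2:**
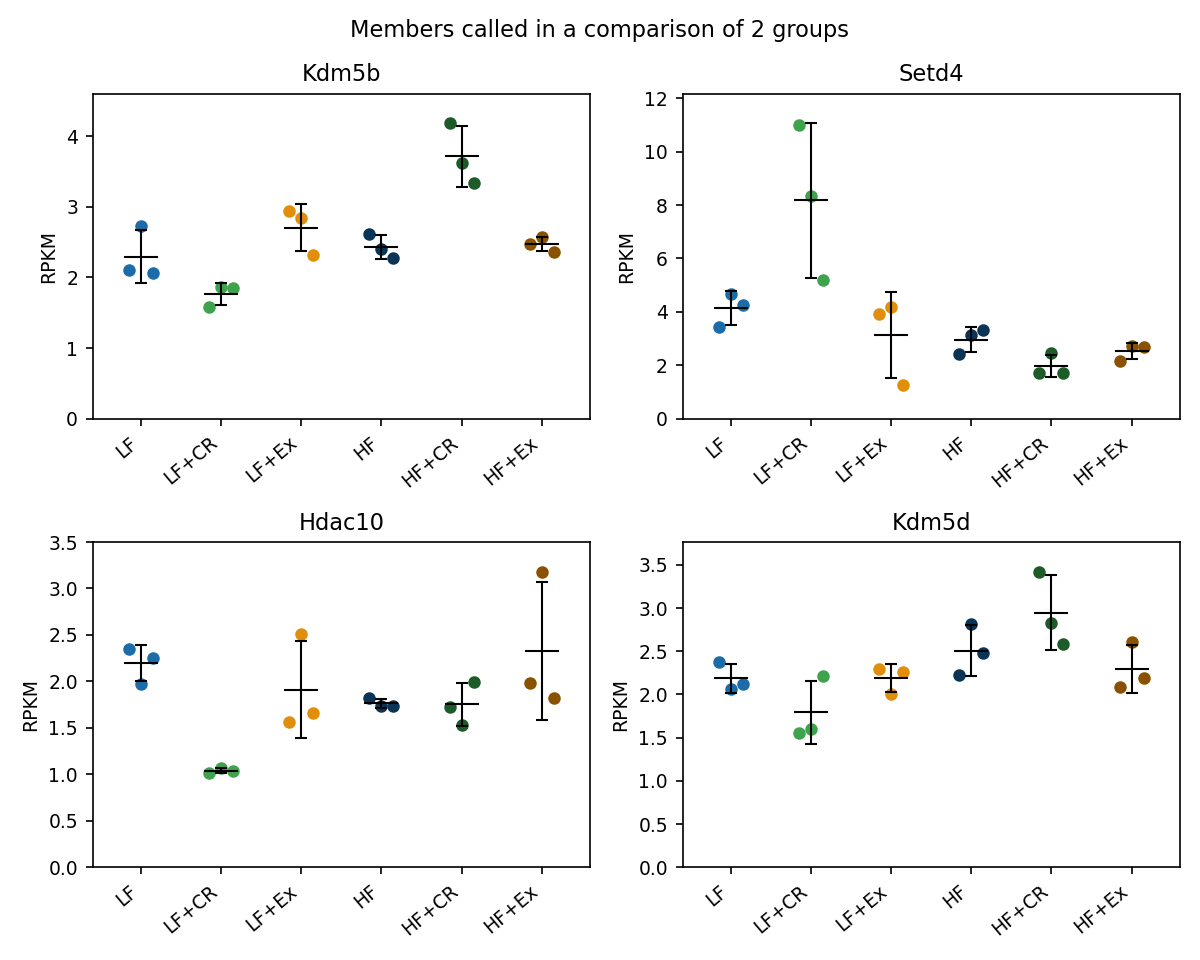
RPKM of Kdm5b, Setd4, Hdac10 and Kdm5d in each of 18 libraries (points) with the mean and SD of the 3 libraries of a group (bars); each panel has its own axis from 0. Kdm5b in HF+CR runs from 3.34 to 4.19 RPKM, above all other libraries, and Hdac10 in LF+CR from 1.01 to 1.07 RPKM, below all others.

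Among the 5 members called by the F test alone, LF and HF differed most in Ep300. Ep300 was at 5.32, 5.57 and 5.37 RPKM in LF, 4.96, 5.49 and 5.15 in LF+CR, 5.19, 4.53 and 4.13 in LF+Ex, 3.43, 4.29 and 3.35 in HF, 4.87, 4.10 and 4.44 in HF+CR, and 4.15, 4.66 and 4.26 in HF+Ex. The LF values lay close together above all HF values. Prmt9, a type II arginine methyltransferase of a splicing factor, was at 3.15, 4.23 and 3.22 RPKM in LF, 3.23, 3.84 and 4.38 in LF+CR, 3.05, 3.41 and 3.56 in LF+Ex, 5.03, 4.80 and 5.04 in HF, 4.09, 4.95 and 5.09 in HF+CR, and 3.77, 4.35 and 4.19 in HF+Ex. Prmt9 went the other way, with all HF libraries above all LF libraries.

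The 3 others are Setd1a, Kmt2c and Setd5, a SET-domain protein that associates with corepressors. Setd1a was at 4.55, 6.997 and 4.70 RPKM in LF, 8.32, 6.71 and 5.85 in LF+CR, 5.54, 5.01 and 3.997 in LF+Ex, 3.82, 3.995 and 3.56 in HF, 5.78, 4.84 and 4.29 in HF+CR, and 3.55, 4.10 and 3.86 in HF+Ex. Kmt2c, which monomethylates lysine 4 at enhancers, was at 2.33, 2.63 and 2.56 RPKM in LF, 2.71, 3.26 and 2.62 in LF+CR, 2.33, 2.26 and 2.27 in LF+Ex, 1.89, 1.87 and 1.99 in HF, 2.94, 2.27 and 2.28 in HF+CR, and 1.83, 1.94 and 2.08 in HF+Ex. Setd5 was at 5.45, 6.79 and 5.70 RPKM in LF, 6.86, 6.35 and 5.70 in LF+CR, 5.51, 5.15 and 4.51 in LF+Ex, 3.96, 4.72 and 4.59 in HF, 5.46, 4.76 and 6.27 in HF+CR, and 4.45, 4.58 and 4.59 in HF+Ex. In all 3 genes every HF library and every HF+Ex library was below every LF library, and LF+CR had the highest mean.

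The comparison of HF with LF sets the diets against each other without CR or Ex. More members were lower than higher in HF, and the lysine 4 methyltransferases were lower in every case, but no member passed the test. Of 58 members, 40 were below 0 (69.0%), against 53.2% of all genes, with a median log2 difference of -0.12 against -0.02 over all genes. limma called 0 members at an adjusted p under 0.05, against 0.406% of all genes. Ep300 was called under median-of-ratios scaling (-0.43, adjusted p = 0.0257) and quantile normalization (-0.45, adjusted p = 0.0190), with 2 and 5 members called in all. Under these 2 scalings 203 and 283 of all 10356 genes were called, in place of 42. At an unadjusted p under 0.05, 13 members were lower and 3 higher, against 8.92% and 7.9% of all genes, and the libraries of HF and LF did not overlap for 17 lower and 3 higher members, against 10.9% and 7.97%. The smallest adjusted p were those of Ep300 (-0.46 ± 0.10, adjusted p = 0.0569), Prmt9 (0.40 ± 0.12, adjusted p = 0.112) and Kat6a (-0.31 ± 0.09, adjusted p = 0.112).

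Kat6a (MOZ), an acetyltransferase of H3, was at 3.87, 3.84 and 3.58 RPKM in LF, 3.40, 3.81 and 3.61 in LF+CR, 3.26, 2.98 and 3.11 in LF+Ex, 2.91, 3.09 and 2.53 in HF, 3.25, 3.27 and 3.40 in HF+CR, and 2.79, 3.51 and 2.999 in HF+Ex. All LF libraries lay above all HF libraries and above all LF+Ex libraries. All 7 tested lysine 4 methyltransferases were below 0 in HF against LF, with a median of -0.26, and 5 did not overlap between the groups. Without LF 2 and HF+CR 3, 6 of the 7 were below 0, and under both other scalings all 7 were. Setd1b was at 4.30, 4.16 and 3.40 RPKM in LF, and 2.47, 2.53 and 2.20 in HF, and Kmt2d, another enhancer enzyme, at 5.18, 4.74 and 4.26 RPKM in LF, and 3.78, 3.74 and 3.09 in HF. Kmt2a was at 1.57, 2.44 and 1.74 RPKM in LF, and 1.56, 1.57 and 1.48 in HF, where the closest libraries, LF 1 and HF 2, were at the same value to 3 digits.

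Members of other classes with an unadjusted p under 0.05 in HF against LF included 3 demethylases and 1 acetyltransferase that are named here after their values were seen. Kdm4b, a demethylase of lysines 9 and 36 of H3, was at 4.10, 5.19 and 4.03 RPKM in LF, and 3.09, 3.27 and 2.38 in HF (-0.48 ± 0.14, adjusted p = 0.117). Kdm6b (JMJD3), which removes methyl groups from lysine 27 of H3 and is known for its part in macrophages, was at 4.87, 5.63 and 2.79 RPKM in LF, and 2.70, 2.90 and 2.12 in HF (-0.57 ± 0.20, adjusted p = 0.179). All HF libraries were below all LF libraries for Kdm4b, and for Kdm6b LF 3 lay among them. Kdm2b, a demethylase of lysine 36 that brings Polycomb complexes to CpG islands, was at 1.29, 2.14 and 1.39 RPKM in LF, 1.25, 1.35 and 1.07 in LF+CR, 1.51, 0.935 and 0.875 in LF+Ex, 0.655, 0.988 and 0.272 in HF, 0.117, 0.265 and 1.05 in HF+CR, and 0.962, 0.752 and 0.831 in HF+Ex. All 3 HF libraries of Kdm2b were below all 3 LF libraries (adjusted p = 0.138), and HF+CR 1 was the lowest of the 18. Kat5 (TIP60), an acetyltransferase of histones H4 and H2A, was at 2.76, 3.37 and 0.684 RPKM in LF, and 3.55, 4.97 and 4.06 in HF (0.77 ± 0.29, adjusted p = 0.198). The Kat5 row was higher in every HF library than in every LF library, with LF 3 far below LF 1 and LF 2. It is 1 of 5 RefSeq rows and holds 59.7% of the Kat5 RPKM. Another Kat5 row, tested on its own, had the opposite sign and was not called (-0.18 ± 0.29, limma adjusted p = 0.804).

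Directions differed among the other classes. All 4 class I deacetylases were above 0 in HF against LF (median 0.07), also under both other scalings, with Hdac3 at 0.21 ± 0.09 (adjusted p = 0.254). Both class IIa and all 3 class IIb and IV deacetylases were below 0, as were 4 of 5 other Setd enzymes, 7 of 9 acetyltransferases and 11 of 16 demethylases. The H3K27, H3K9 and arginine methyltransferases were divided evenly. Summed markers of lymphocytes, stellate cells and endothelial cells overlapped between HF and LF. The 9 lymphocyte markers summed to 4.24 to 7.42 RPKM in HF and 1.16 to 6.34 RPKM in LF. The 8 stellate cell markers summed to 98.1 to 118 and 53.2 to 151 RPKM. In both sets the overlap came from LF 2, which held the highest LF sum. The LF medians, 2.51 RPKM for lymphocyte and 76.1 RPKM for stellate cell markers, were below every HF library. Both had the higher median in HF, while the 7 endothelial markers had the lower one, 75.97 against 89.5 RPKM. The part of these cells in the differences of the members was not tested.

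The LF+CR group was compared with LF for the effect of CR on the LF diet. Hdac10 was the 1 member called, and it fell, against 6.5% of all genes called, 3.01% higher and 3.49% lower. Of the 58 members 30 were below 0 (median -0.03, all genes 0.00), and 5 were higher and 5 lower at an unadjusted p under 0.05, against 11.2% and 11.2% of all genes. The libraries did not overlap for 3 higher and 7 lower members, against 11.6% and 11.7%. The 5 Setd enzymes outside lysine 4 were all above 0, with Setd4 at 0.79 ± 0.27, Setd6 at 0.31 ± 0.13 and Setd3 at 0.26 ± 0.11 (adjusted p = 0.0964, 0.184 and 0.165). The 3 class IIb and IV deacetylases were all below 0, with Hdac11 at -0.27 ± 0.12 (adjusted p = 0.208) and Hdac6 at -0.33 ± 0.22. Both directions held under the other 2 scalings. With the rows of a gene summed, Hdac5 was called too (-0.65, adjusted p = 0.0165).

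The HF+CR group was compared with HF for the effect of CR on the HF diet. Of 58 members, 40 were above 0 (69.0%), against 51.9% of all genes. Kdm5b was the 1 member called, against 1.4% of all genes, 0.628% higher and 0.772% lower. The median over members was 0.12, against 0.01 over all genes. At an unadjusted p under 0.05, 7 members were higher and 0 lower, against 7.03% and 6.94% of all genes, and the libraries did not overlap for 12 higher and 0 lower members, against 10.7% and 8.29%. All 7 lysine 4 methyltransferases were above 0, with a median of 0.26, under each alternative scaling and filter and without either set of libraries that stood apart, and 5 did not overlap. The largest of these differences were Setd1b at 0.53 ± 0.19 and Kmt2a at 0.32 ± 0.10 (adjusted p = 0.191 and 0.154), neither called.

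Setd1b was at 3.46, 2.96 and 5.76 RPKM in HF+CR 1, 2 and 3, Kmt2d at 4.16, 4.06 and 5.14 RPKM and Kmt2a at 2.24, 2.04 and 2.26 RPKM. HF+CR 3, a library high in bile duct markers, was the highest of its group in all 3 genes and in Kmt2e. HF+CR 1 was the highest of the group in the other tested lysine 4 methyltransferases, Kmt2b, Kmt2c and Setd1a. Demethylases were above 0 in 14 of 16 cases, among them Kdm5a at 0.24 ± 0.12 and Kdm7a at 0.25 ± 0.15. Of the arginine methyltransferases 5 of 6 were below 0, the largest of these at -0.08 ± 0.20 for Prmt1. The comparison shares its HF libraries with that of HF against LF, so a low value in HF moves the 2 in opposite directions.

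**Figure D3:**
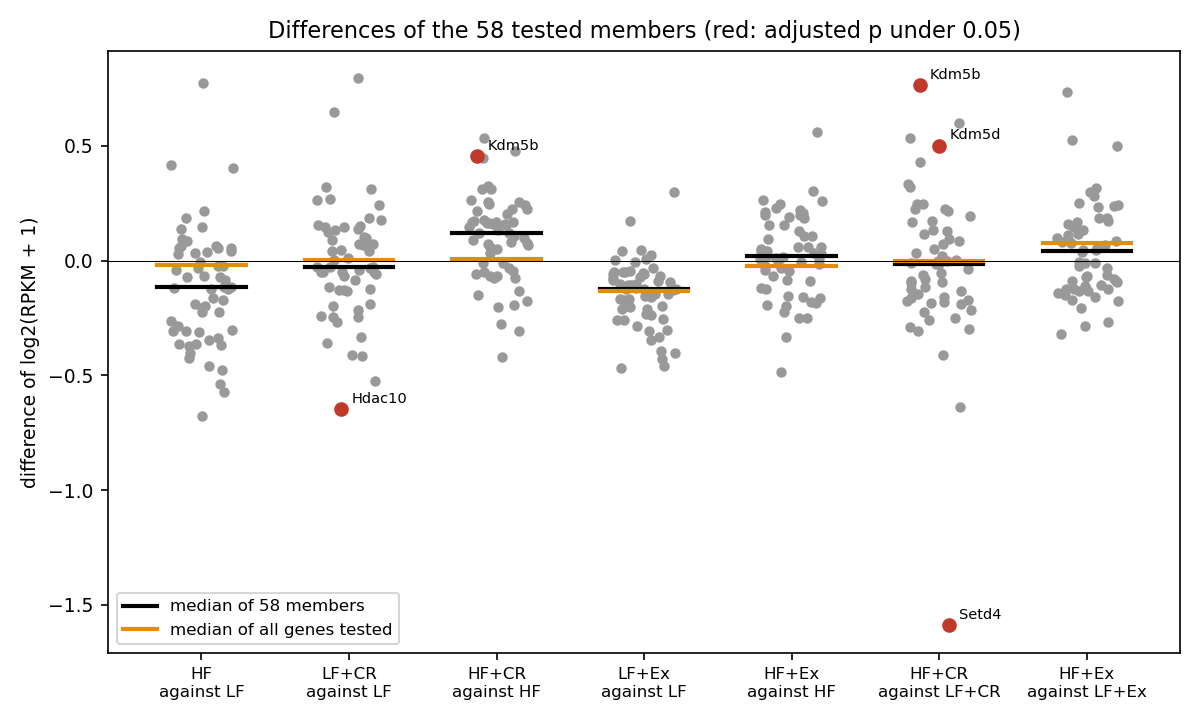
Difference of log2(RPKM + 1) of each of the 58 tested members (points) in 7 comparisons of 2 groups, with members called at an adjusted p under 0.05 in red and named, and the medians of members (black) and of all 10356 genes (orange). The member median is -0.12 in HF against LF and 0.12 in HF+CR against HF, while in LF+Ex against LF the medians of members and of all genes are -0.12 and -0.13.

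Exercise on the LF diet gave no called member. In LF+Ex against LF, 51 of 58 members were below 0, with a median of -0.12, and so were most genes, whose median was -0.13. The median of all genes moved to 0.00 with median-of-ratios scaling, and then 28 of 58 members were below 0, so that relative to all genes the members had no common direction. limma called 0 members and 0% of all genes. With p unadjusted, 0 members were higher and 4 lower, against 0.956% and 8.16% of all genes (9.12% in all). These 4 were Hdac11 (-0.33 ± 0.12, adjusted p = 0.516), Kat6a (-0.21 ± 0.09), Setdb1 (-0.46 ± 0.20) and Prmt3 (-0.39 ± 0.17), the last 3 with adjusted p of 0.530, 0.530 and 0.537. The libraries did not overlap for 5 lower members and 0 higher, against 11.4% and 0.83%. Setdb1 was at 2.86, 5.18 and 3.59 RPKM in LF, 3.29, 4.40 and 2.95 in LF+CR, 3.09, 2.65 and 1.83 in LF+Ex, 3.997, 4.14 and 3.54 in HF, 4.57, 3.59 and 4.35 in HF+CR, and 2.29, 4.23 and 3.04 in HF+Ex. LF+Ex 3 held the lowest of these values.

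On the HF diet, HF+Ex against HF, limma again called 0 members and 0% of all genes. The median over members was 0.02 and over all genes -0.02, with 23 of 58 members and 56.3% of all genes below 0. With p unadjusted, Crebbp was higher (0.26 ± 0.12, adjusted p = 1) and 0 members were lower, against 0.946% and 2.69% of all genes (3.64% in all). Next by p were Hdac5 (0.56 ± 0.27) and Ep300 (0.20 ± 0.10), both with an adjusted p of 1. Crebbp was at 3.67, 3.17 and 3.27 RPKM in LF, 3.97, 3.73 and 3.58 in LF+CR, 3.69, 3.08 and 2.94 in LF+Ex, 2.73, 2.79 and 2.70 in HF, 2.82, 2.75 and 4.20 in HF+CR, and 3.52, 3.26 and 3.68 in HF+Ex. The HF libraries of Crebbp lay close together below all HF+Ex libraries. The libraries did not overlap for 7 higher and 4 lower members, against 2.96% and 8.06% of all genes.

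The diets were also compared under CR. In HF+CR against LF+CR, 3 of 58 members were called, Kdm5b and Kdm5d higher and Setd4 lower, against 9.78% of all genes, 4.7% higher and 5.08% lower. Members were near balance, with 33 below 0 and a median of -0.01 against 0.00. With p unadjusted, 6 were higher and 4 lower, against 12.5% and 13.8% of all genes (26.3% in all), and the libraries did not overlap for 8 higher and 7 lower, against 15.6% and 15.7%. Next to the called members were Kdm4a at 0.60 ± 0.19 (adjusted p = 0.0605) and Kdm2b at -0.64 ± 0.22 (adjusted p = 0.0737), both of them called under each of the other 2 scalings (adjusted p = 0.0343 and 0.0326 for Kdm4a, 0.0475 and 0.0164 for Kdm2b). All 5 Setd enzymes outside lysine 4 were below 0, and both H3K27 methyltransferases above 0. Without the pancreatic libraries Kdm5b alone was called.

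Under Ex, HF+Ex against LF+Ex gave 0 called members by limma, against 5.15% of all genes. At an unadjusted p under 0.05, 2 members were higher and 1 lower, against 16.8% and 5.44%, and the libraries did not overlap for 8 higher and 2 lower, against 24.2% and 6.67%. Of the 58 members 28 were below 0, against 38.5% of all genes, with a median of 0.04 against 0.08 over all genes. The sign of the member median turned with the scaling: 32 were below 0 under median-of-ratios scaling (median -0.03, all genes 0.00) and 41 under quantile normalization (-0.13, all genes -0.03). The smallest p were those of Hdac3 (0.30 ± 0.09, adjusted p = 0.0695), Kdm1b (0.32 ± 0.11, adjusted p = 0.114) and Kat8 (-0.32 ± 0.13, adjusted p = 0.148). Kdm1b, a flavin-dependent demethylase of lysine 4, was at 5.15, 5.28 and 5.74 RPKM in LF, 4.84, 5.32 and 5.15 in LF+CR, 4.32, 4.55 and 5.14 in LF+Ex, 5.39, 6.82 and 6.64 in HF, 6.25, 5.87 and 4.81 in HF+CR, and 5.15, 6.60 and 6.53 in HF+Ex. LF+Ex had the lowest Kdm1b mean, and HF 2 and HF 3 the highest values. Kat8 was at 8.31, 9.02 and 8.01 RPKM in LF, 9.87, 9.71 and 7.91 in LF+CR, 9.51, 9.19 and 7.23 in LF+Ex, 7.77, 8.28 and 7.13 in HF, 7.72, 8.97 and 7.61 in HF+CR, and 6.14, 8.07 and 5.99 in HF+Ex. HF+Ex 3 and HF+Ex 1 were the 2 lowest libraries for Kat8, which was called under the other 2 scalings (-0.41, adjusted p = 0.0324 and 0.0365).

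Whether CR acted differently on the 2 diets was tested as an interaction. Kdm5b was the 1 member called, against 1.02% of all genes, 0.579% above and 0.444% below 0, with a higher effect of CR on the HF diet. Of the 58 members 19 were below 0, against 48.6% of all genes, with a median of 0.10 against 0.01 over all genes. At an unadjusted p under 0.05, 4 were above and 2 below 0, against 5.99% and 5.79%. The others of these 6 were Setd4, Hdac10 (0.64 ± 0.21, adjusted p = 0.196), Setd3 (-0.34 ± 0.15, adjusted p = 0.399), Kdm5d (0.36 ± 0.17, adjusted p = 0.407) and Hdac5 (0.84 ± 0.38, adjusted p = 0.410). For the interaction of Ex with diet limma called 0 members and 0% of all genes. There 13 of 58 were below 0, against 32.5% of all genes, with a median of 0.18 against 0.11 over all genes. With median-of-ratios scaling 21 were below 0, with the median of all genes at 0.00. The 3 members at an unadjusted p under 0.05, all above 0 against 3.82% of all genes, were Ep300 (0.39 ± 0.14), Kat6a (0.30 ± 0.13) and Hdac4 (0.45 ± 0.21), each with an adjusted p of 0.818, and 0 were below 0 against 1.25%. Hdac4, a class IIa deacetylase, was at 1.33, 1.299 and 0.878 RPKM in LF, 0.709, 1.08 and 0.909 in LF+CR, 1.05, 0.897 and 0.517 in LF+Ex, 0.584, 0.776 and 0.676 in HF, 0.681, 0.531 and 1.04 in HF+CR, and 0.856, 0.985 and 0.899 in HF+Ex. LF 1 and LF 2 were its highest libraries and LF+Ex 3 its lowest.

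Many of these enzymes have long transcripts. The median length was 4599 bases over the 58 members, 8857 bases over the 7 lysine 4 methyltransferases and 2018 bases over the class I deacetylases, against 2789 bases over all genes with a length. In HF against LF the 29 members of at least 4599 bases had a median of -0.22, with 23 below 0 (79.3%). The 29 shorter members had a median of -0.03, with 17 below 0 (58.6%). Over all genes the 2065 long ones had a median of -0.09, with 69.2% below 0, and the 8136 shorter ones 0.00, with 49.3% below 0. In HF+CR against HF the medians were 0.17 for long members, with 2 of 29 below 0, and -0.01 for short ones, with 16 of 29 below 0. All long and short genes had medians of 0.09 and -0.01, with 30.3% and 52.5% below 0. The medians of long genes in general had the same sign as those of the long members in these 2 comparisons and were smaller, and the part of length in the members' differences was not tested.

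**Figure D4:**
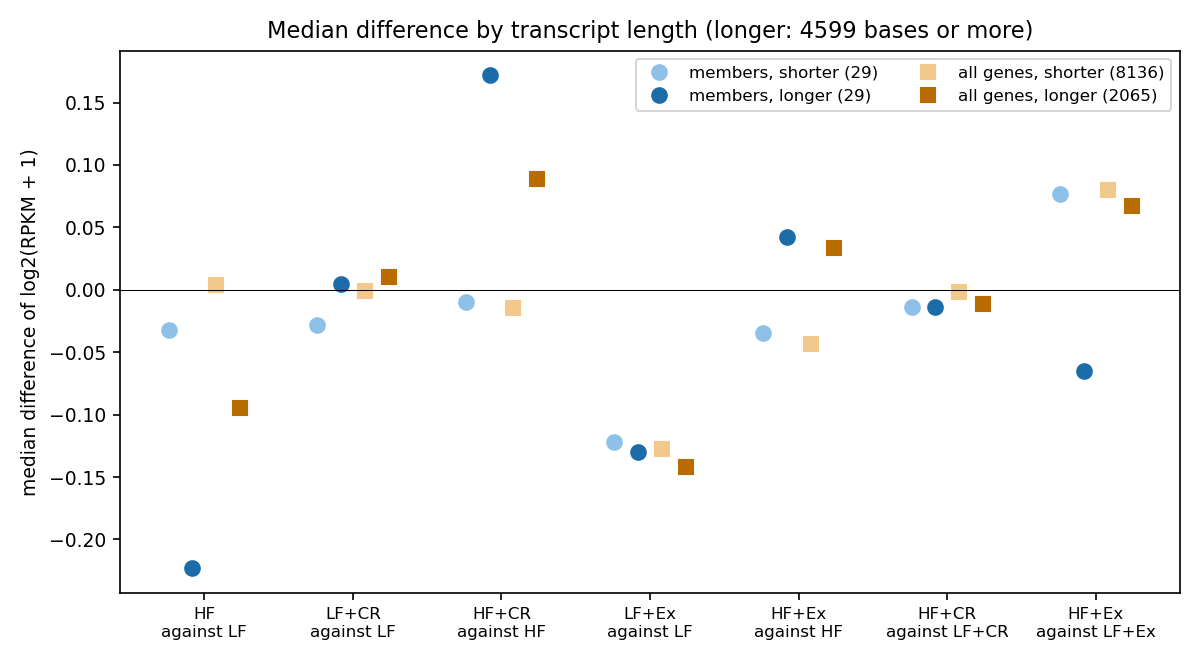
Median difference of log2(RPKM + 1) in 7 comparisons for members (circles) and all genes (squares), each divided at a transcript length of 4599 bases into shorter (pale) and longer (dark). Longer members lie at -0.22 in HF against LF and 0.17 in HF+CR against HF, and longer genes in general at -0.09 and 0.09.

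Of the 66 members 22 have more than 1 RefSeq row, and the row that represents a gene can hide its other transcripts. Each row was therefore tested on its own, a setting chosen after seeing the data, over 12175 rows of which 69 were of members and 11 were not their gene's highest. The Kat2b row NM_020005 had lower group means on the HF diet than on the LF diet. Its values ran from 4.01 to 9.09 RPKM over the 9 LF-diet libraries and from 1.22 to 4.57 RPKM over the 9 HF-diet libraries. HF 1 alone among the HF-diet libraries was above the lowest LF-diet library, LF 3. Group means were 6.74 ± 2.56 RPKM in LF, 5.77 ± 1.04 in LF+CR and 7.59 ± 1.34 in LF+Ex against 2.95 ± 1.63 in HF, 2.39 ± 0.166 in HF+CR and 1.82 ± 0.783 in HF+Ex (SD, n = 3). The row differed by the F test (limma adjusted p = 0.00574; 17.5% of all rows called) and fell in HF+Ex against LF+Ex (-1.63 ± 0.30, adjusted p = 0.0145; 3.57% of rows). It was not called in HF against LF (-1.001, adjusted p = 0.129) or in HF+CR against LF+CR (-0.99, adjusted p = 0.0534). The sum of the Kat2b rows was 15.2 RPKM in LF and 13.8 in HF, and 13.6 in LF+Ex and 12.5 in HF+Ex. Without the libraries with pancreatic transcripts the difference in HF+Ex against LF+Ex was -1.60 (adjusted p = 0.127), no longer called, and the F test had an adjusted p of 0.0641. The division of reads between rows of a gene is an estimate of the authors' software.

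Rows of lysine 9 methyltransferases showed group differences as well. The Ehmt2 row NM_145830 was lowest in HF, at 3.68 ± 0.525 RPKM, with group means of 5.87 to 7.17 RPKM elsewhere and no overlap with any other group. It rose in HF+CR against HF (0.75 ± 0.16, adjusted p = 0.0411; 1.05% of rows called) and differed by the F test (adjusted p = 0.0199). The sum of the Ehmt2 rows was 18.8 RPKM in HF and 19.5 RPKM in HF+CR. Neither call was kept without the pancreatic libraries (0.90, adjusted p = 0.0977 in HF+CR against HF; F test adjusted p = 0.0612), and without the libraries high in bile duct markers the row was called in HF against LF (-0.86, adjusted p = 0.0376) but not in HF+CR against HF (0.63, adjusted p = 0.0722). The Setdb1 row NM_001163642 was called by the F test (adjusted p = 0.0368), was not called without the pancreatic libraries (adjusted p = 0.145), was listed at 0 in all 3 HF libraries and had a mean of at most 1.29 RPKM in any group.

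**Figure D5:**
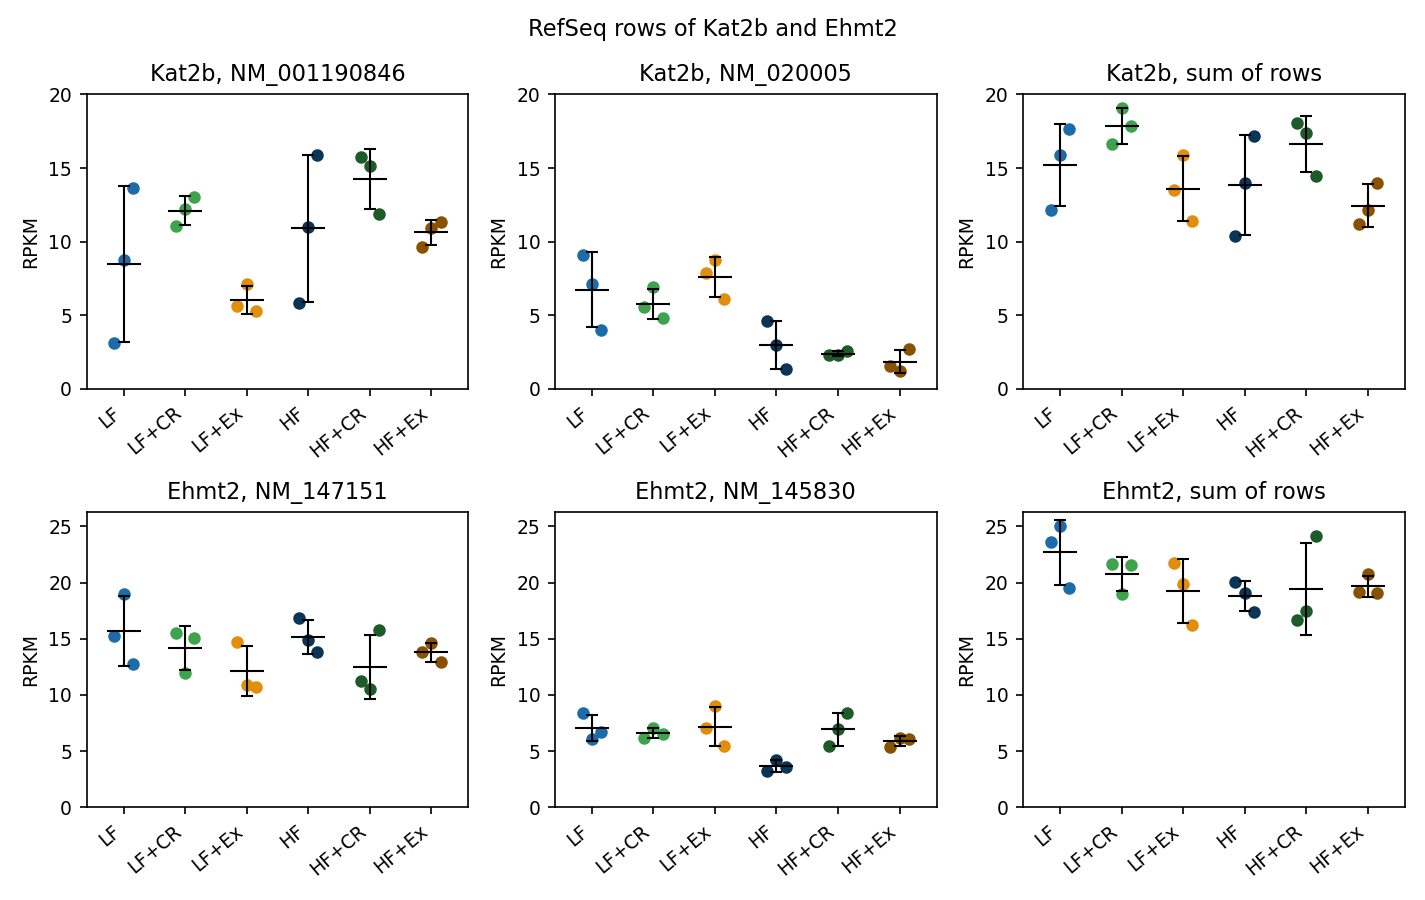
RPKM of 2 RefSeq rows and of the sum of all rows of Kat2b (top) and Ehmt2 (bottom) in each of 18 libraries (points), with group means and SD (bars); panels of a gene share an axis. NM_020005 of Kat2b lies at 1.22 to 4.57 RPKM on the HF diet and 4.01 to 9.09 RPKM on the LF diet, while the sums of its rows overlap.

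Genes that work with these enzymes were counted from lists of related genes. By the F test limma called 3 of 14 other histone methyltransferases, 1 of 7 other demethylases, 2 of 8 other acetyltransferases, 3 of 22 COMPASS and Polycomb partners, 2 of 25 partners of deacetylases, 6 of 33 partners of acetyltransferases, 6 of 24 readers of the marks and 7 of 18 genes of methyl and acetyl donor supply, against 21.8% of all genes. In HF against LF and in the comparisons with Ex, 0 genes of any list were called. Of all genes, 0.406% were called in HF against LF, 5.15% in HF+Ex against LF+Ex and 0% in the other comparisons with Ex. The comparisons with CR gave 22 calls over the 151 genes tested: 7 in LF+CR against LF, 1 in HF+CR against HF and 14 in HF+CR against LF+CR, against 6.5%, 1.4% and 9.78% of all genes, so each share over the lists was below that over all genes. Without the pancreatic libraries 3 of the 22 were kept, Acly in LF+CR against LF (2.10, adjusted p = 0.0109) and Trim24 (-1.24, adjusted p = 0.0461) and Mat1a (-0.74, adjusted p = 0.0282) in HF+CR against LF+CR. Without the libraries high in bile duct markers 19 of the 22 were kept. That setting called 1 list gene in HF against LF, 7 in LF+CR against LF and 6 in HF+CR against HF. It called 19 in HF+CR against LF+CR and 4 in HF+Ex against LF+Ex.

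Genes of donor supply had the largest differences. In LF+CR against LF, 3 of 18 rose and 0 fell, against 3.01% and 3.49% of all genes: Acly, which makes acetyl-CoA from citrate, from 16.5 ± 2.42 to 81.4 ± 27.4 RPKM (2.19 ± 0.27, adjusted p = 0.000538), Acss2, which makes it from acetate (1.66 ± 0.45, adjusted p = 0.0402), and Pemt, a phosphatidylethanolamine methyltransferase (0.55 ± 0.14, adjusted p = 0.0351). In HF+CR against HF, 1 of 18 fell (0.772% of all genes did), Mat1a, the liver enzyme that makes S-adenosylmethionine, from 1105 ± 70.8 to 684 ± 50.3 RPKM (-0.69 ± 0.14, adjusted p = 0.0292). In HF+CR against LF+CR, 1 of 18 was higher and 5 were lower, against 4.7% and 5.08% of all genes. Bhmt, which remethylates homocysteine, was at 1197 ± 431 against 179 ± 71.8 RPKM (2.77 ± 0.47, adjusted p = 0.00220), and Pemt (-0.71 ± 0.14, adjusted p = 0.00690) and Mat1a (-0.66 ± 0.14, adjusted p = 0.00920) were among those lower.

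Among readers of the marks, Trim24, which binds unmethylated lysine 4 together with acetylated lysine 23 of H3, rose in LF+CR against LF, from 2.15 ± 0.431 to 4.80 ± 0.709 RPKM (0.88 ± 0.21, adjusted p = 0.0219), and was lower in HF+CR, at 1.67 ± 0.351 RPKM (-1.12 ± 0.21, adjusted p = 0.00375). Cbx3, a heterochromatin protein, rose in LF+CR against LF (0.47 ± 0.13, adjusted p = 0.0404), and Cbx7, a Polycomb reader, was lower in HF+CR against LF+CR (-0.51 ± 0.14, adjusted p = 0.0354). Of the acetyltransferase partners Ep400 rose in LF+CR against LF (0.65 ± 0.18, adjusted p = 0.0453). In HF+CR against LF+CR, Brpf3 (-0.62 ± 0.14, adjusted p = 0.0121) and Tada2b (-0.50 ± 0.11, adjusted p = 0.00816) were lower and Tada1 (0.45 ± 0.10, adjusted p = 0.0133) higher. Lower there too were the Sin3 scaffold Sin3b (-0.48 ± 0.11, adjusted p = 0.0112), the Polycomb partner Phf1 (-0.50 ± 0.11, adjusted p = 0.00907) and the COMPASS partner Pagr1a (-0.54 ± 0.15, adjusted p = 0.0309). Prdm2, a lysine 9 methyltransferase outside the name rule, rose in LF+CR against LF (0.45 ± 0.12, adjusted p = 0.0312). The interaction of CR with diet called 0 genes of these lists.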

How the data were processed

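PolyA RNA from mouse liver was sequenced in 18 libraries, 3 in each of 6 groups. The authors deposited RPKM per RefSeq transcript, with TopHat 1.4.1 and Cufflinks 1.3.0 named in the submitters' processing notes. The read total behind RPKM, the genome build and any use of strand are not given in the sources used here. The samples' own files and the series table held the same 550476 values. Of 30582 rows, 30003 were named through the RefSeq table of GRCm38.p6 and 180 through GENCODE, and 399 had no name. Setdb2 had no named row and was not analysed here.

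Per gene, the row with the highest mean was kept, and a gene entered the fit if 3 or more libraries reached 1 RPKM. Values were taken as log2(RPKM + 1) and fitted with limma 3.58.1 (R 4.3.3; 6 group means, empirical Bayes with a trend, 12 residual degrees of freedom), as 9 contrasts and 1 F test with Benjamini-Hochberg adjustment over 10356 genes per test. A gene was called at an adjusted p under 0.05, and the fit was tested on simulated data. Depth came from the value of 1 read in low RPKM values and is an estimate. Groups came from the sample titles. Genes named with all values were the members called in any test, the highest of each class, and up to 3 with the smallest p where a comparison called none. The members and lists were chosen with earlier results of these data known. Rows tested one by one were chosen after seeing the data. Other pseudocounts, filters, scalings, sums of rows, the replicate number as a block and the omission of libraries were tried. Sequences and positions are from RefSeq on GRCm38.p6.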

Additional observations from a re-analysis of the deposited data

Results flagged for a closer look

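Kdm5b was singled out because CR had different effects on the 2 diets by a test of the difference itself. The interaction was 0.70 ± 0.15 on the log2(RPKM + 1) scale (limma adjusted p = 0.0360), from a difference of 0.46 on the HF diet and -0.25 on the LF diet, and all 3 HF+CR libraries were above all 3 HF libraries while all 3 LF+CR libraries were below all 3 LF libraries. The call was lost in 12 of 18 fits without 1 library and without the libraries with pancreatic transcripts, 1 of which, HF+CR 1, held the highest Kdm5b value and another, LF+CR 1, the lowest. The part of pancreatic transcripts in the difference was not tested.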

How the results depend on the processing

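Members called were counted under each alternative. None of the single-member differences recomputed this way, those of the members called or of smallest p, changed sign. The member median turned with median-of-ratios and quantile scaling in LF+Ex against LF, from -0.12 to 0.01 and 0.01, and in HF+Ex against LF+Ex, from 0.04 to -0.03 and -0.13. Without the libraries with pancreatic transcripts, 0 members were called by the F test (8 in the reported fit), 0 in LF+CR against LF, 0 in HF+CR against HF, 1 in HF+CR against LF+CR and 0 in the interaction of CR with diet. Without the libraries high in bile duct markers the count was 1 in HF against LF, 5 in HF+CR against LF+CR and 1 in HF+Ex against LF+Ex. Median-of-ratios scaling gave 2, 5 and 1 in these 3 comparisons, and quantile normalization 5, 5 and 2. Of all 10356 genes, 42, 1013 and 533 were called in these 3 comparisons in the reported fit. The numbers were 203, 1279 and 756 under median-of-ratios scaling and 283, 1244 and 720 under quantile normalization. With rows summed, 2 members were called in LF+CR against LF and 5 in HF+CR against LF+CR, with 740 and 1155 of all genes. With every row tested on its own, 1 member was called in HF+Ex against LF+Ex, against 3.57% of all rows. In HF+CR against HF the count was 0 with a pseudocount of 0.1 RPKM, with no filter and with the replicate block. Kdm5b had limma adjusted p of 0.0640, 0.0603 and 0.0571 in these 3 (0.0199 to 0.259 over all alternatives other than the test of single rows). With every row tested on its own Kdm5b was not called in HF+CR against HF, and the member called was Ehmt2, by its row NM_145830 (adjusted p = 0.0411). The causes were not tested. Leaving out 1 library gave 2 to 9 by the F test, 0 to 1 in HF against LF, 0 to 2 in LF+CR against LF, 0 to 1 in HF+CR against HF, 2 to 5 in HF+CR against LF+CR, 0 in HF+Ex against LF+Ex and 0 to 2 in the interaction of CR with diet. The comparisons of LF+Ex with LF and HF+Ex with HF and the interaction of Ex with diet stayed at 0 under every alternative. Same-numbered libraries were not paired in the data: over 45 pairs the correlation of deviations from group means was -0.49 to 0.32 (median 0.00), 10 pairs were over 0.1, and 6 of 18 libraries correlated best with their own number. The replicate block gave 6 members by the F test. Over all genes, the share of calls that were higher was 64.3% in HF against LF and became 53.2% and 45.2% under median-of-ratios and quantile scaling, and in HF+Ex against LF+Ex it went from 80.3% to 60.1% and 52.9%. By the estimated depth, values of Setd4 and Hdac10 rest on as few as 60 and 81 reads. With 3 libraries a group, small differences may be missed, and RPKM cannot separate fewer cells from less RNA per cell. Whether TopHat and Cufflinks divided reads correctly among transcripts and paralogs was not tested.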
